A study of Mus musculus with 56 samples.

Results

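The 10 genes described here encode the pyruvate dehydrogenase complex of mitochondria and the enzymes that switch it off and on. They were chosen by name, not by a cutoff on their values, but with earlier results of these data known. The members are kinase genes Pdk1, Pdk2 and Pdk4, phosphatase genes Pdp1 and Pdp2, and subunit genes Pdha1, Pdhb, Dlat, Dld and Pdhx. They are 10 of the 15539 genes in a table of read counts from gastrocnemius, the large calf muscle, of 56 mice, and all 10 were among the 14321 genes that passed the filter on low counts and were tested. The mice formed 8 groups of 7, by sex, labelled genotype and wheel. All were C57Bl/6 and ate chow 5015. Control mice carried floxed alleles of Elavl1, the gene of the RNA-binding protein HuR, without Cre recombinase, so the floxed alleles were shared by every group. HuRm-/- mice carried the same alleles plus Cre under the Mlc1f promoter, a myosin light chain promoter active in skeletal muscle fibres, so other cells of the muscle keep the gene by design. Each genotype had 7 males and 7 females with a locked wheel and 7 males and 7 females with a wheel that turned freely. The labels place wheel running between 10 and 20 weeks of age in one field, and in another give 10 weeks of wheel exposure at 5 months of age. Each mouse has its own number within its sex in the labels, so the spread within a group is that between animals.

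The complex converts pyruvate, the end product of glycolysis, into acetyl-CoA, the fuel of the citric acid cycle, in a step that cannot be reversed. It is built from 3 catalytic enzymes. E1, a tetramer of the proteins of Pdha1 and Pdhb, removes carbon dioxide from pyruvate with the help of thiamine pyrophosphate. E2, encoded by Dlat, passes the acetyl group from its lipoyl arm to coenzyme A and forms the core, to which the protein of Pdhx binds E3. E3, encoded by Dld, reoxidises the lipoyl arm and also serves other dehydrogenases. Pyruvate dehydrogenase kinases phosphorylate the E1 alpha subunit and stop the complex, and the phosphatases of Pdp1 and Pdp2 remove that phosphate. In skeletal muscle PDK4 is known to be induced in fasting and fat feeding, when fat replaces glucose as fuel, and PDP1 is the calcium-activated phosphatase of contracting muscle. Messenger RNA counts, not protein, phosphorylation or enzyme activity, were measured here.

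The libraries held between 6639782 and 21633091 counts. Markers of fast fibres, the main fibre type of the gastrocnemius, summed to between 79550 and 111765 CPM in every mouse (CPM is a gene's count scaled to a common library total, the usual unit for comparing libraries), against 848 to 2991 CPM for slow fibres. The Elavl1 count did not bear out the genotype labels. Averaged over sex and wheel it was 0.13 ± 0.058 (SE) log2 units higher in mice labelled HuRm-/- (limma adjusted p = 0.15). In running males it was higher by 0.44 (limma adjusted p = 0.0242), with 27.8 to 60.9 CPM in controls and 53.2 to 69.8 CPM in the labelled mice. That call was lost by edgeR (adjusted p = 0.0605), with only these 14 mice fitted (0.133) and without any 1 of 5 mice (up to 0.132, without male control running mouse 10). The control running males were split. Mice 13, 10 and 25 were at 27.8, 30.8 and 40.3 CPM, and the others at 54.4 to 60.9 CPM. The count was not lower in the labelled mice in these comparisons, so it did not bear out the labels. Whether reads outside the deleted exons or from cells without Cre were counted was not tested. The groups are called labelled HuRm-/- throughout. 1 library stood apart, that of female HuRm-/- locked mouse 34, whose sample quality weight was 0.201 when the next lowest was 0.531. Several results that it moves by more than 1.5 times or across the threshold are also given without it. Counts over all genes that it moves by more than 1.5 times are given without it at the end.

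Levels set side by side between genes are CPM per kilobase of exon, median of the 56 mice. They are approximate, because the labels name a kit that reads the 3' end of messenger RNA, where length does not set the count, while the study's methods name a kit that reads whole transcripts. On this scale the E1 genes and Pdk2 led, with 60 for Pdk2, 53.2 for Pdha1 and 43.1 for Pdhb. Dld (20.9), Pdk4 (19.4) and Dlat (18.1) lay close together, followed by Pdp1 at 11 and Pdhx at 9.88. Pdk1 at 2.91 and Pdp2 at 0.654 were the lowest kinase and phosphatase. By median CPM not divided by length the order changed in part. Pdha1 (198) then lay above Pdk2 (190) and Pdhb (166), and Dlat (88.3) above Dld (77) and Pdk4 (68.2).

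**Figure D1:**
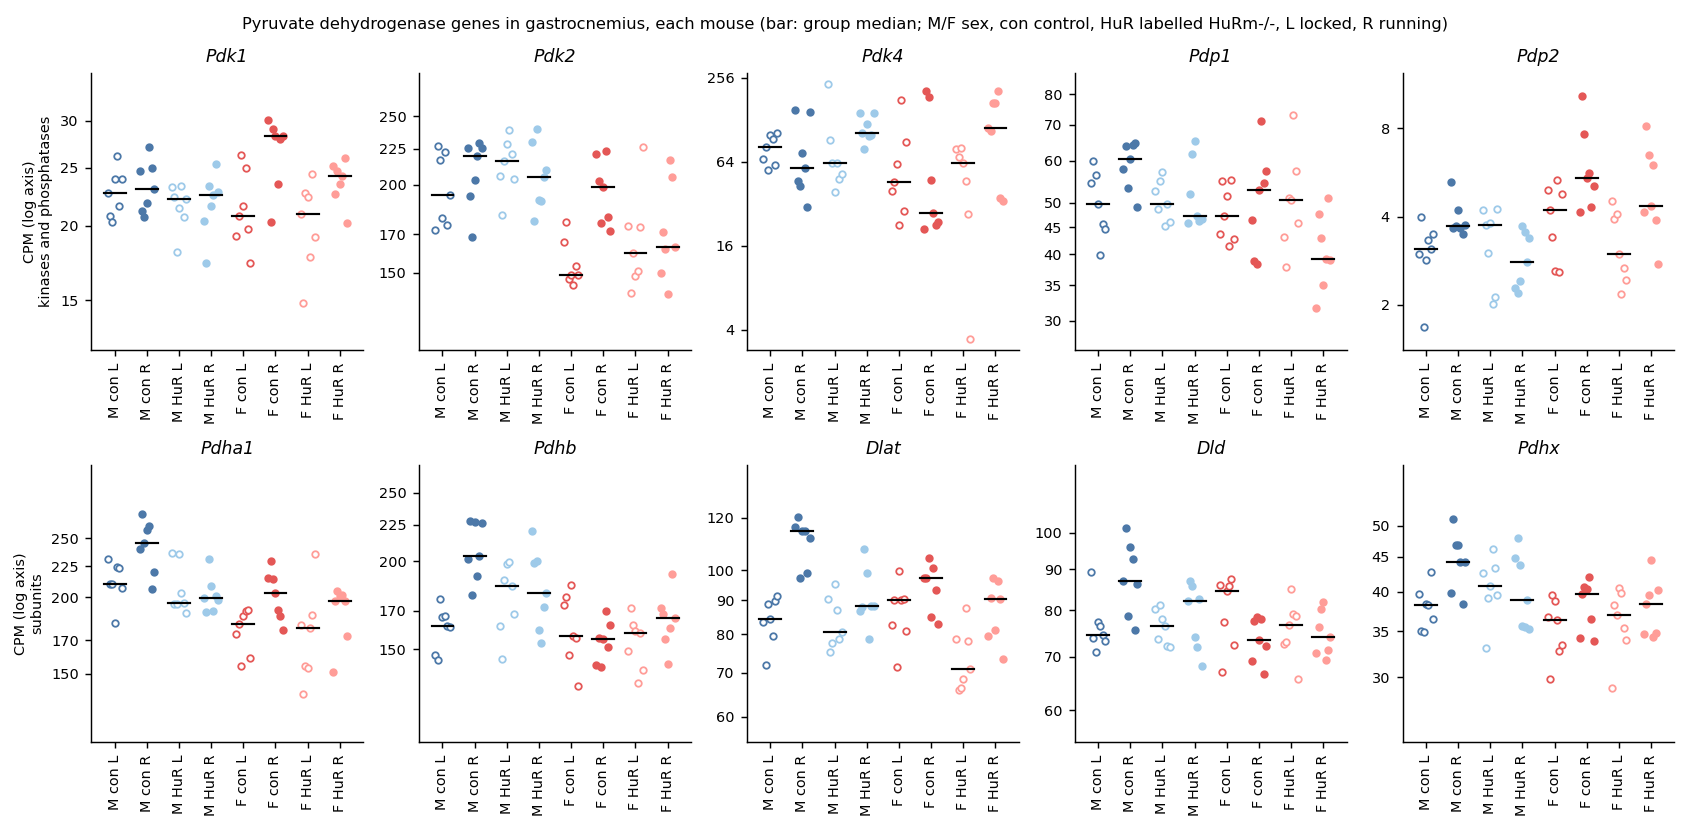
CPM (log axis) of the 10 genes in each of the 56 mice, by group of 7, with a bar at the group median; blue points are males, red females, dark controls, light labelled HuRm-/-, open locked wheel and filled running wheel. Pdk4 runs from 3.45 to 229 CPM across mice (from 21.1 CPM without female HuRm-/- locked mouse 34), while the subunit gene Dld stays between 65.7 and 101 CPM.

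Pdk4 differed far more between mice of the same group than any other member. Its values ran from 3.45 to 229 CPM, a 66.4-fold range, while the other 9 genes ranged from 1.54-fold (Dld) to 6.12-fold (Pdp2). The 3.45 CPM was that of female HuRm-/- locked mouse 34, and without it Pdk4 ran from 21.1 to 229 CPM, a 10.9-fold range. The SD within groups, in log2 CPM, was 1.04 for Pdk4, larger than that of 99.9% of the genes at 10 CPM or more, and 0.90 without female HuRm-/- locked mouse 34. The 5 subunit genes had SDs of 0.12 to 0.15, below the median of 0.19 for the 6181 genes at 10 CPM or more. Pdk1 and Pdk2 had SDs of 0.17 to 0.18, Pdp1 0.23 and Pdp2 0.41. Counting error alone gives an SD of 0.061 for Pdk4 and 0.23 for Pdp2, whose median is 46 reads per mouse. These are descriptions with no test.

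**Figure D2:**
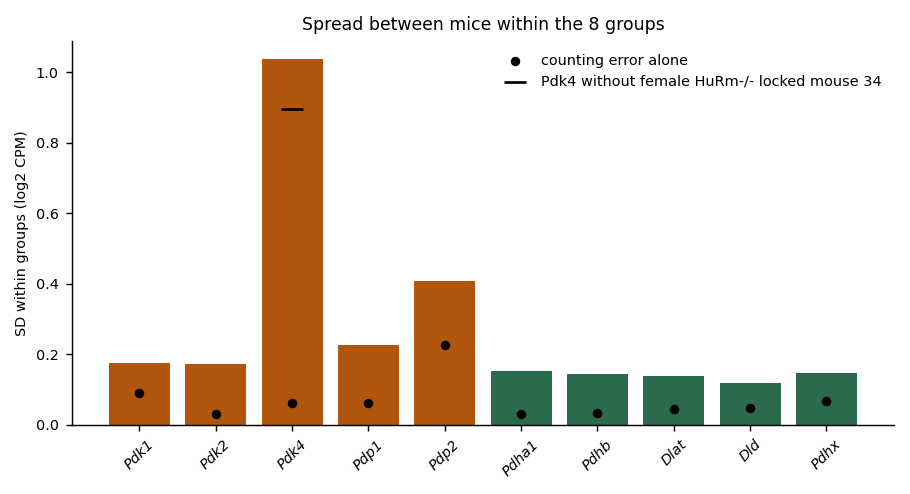
SD of log2 CPM between mice within the 8 groups (bars, kinases and phosphatases in orange, subunits in green), with the SD that counting error alone would give (dots) and Pdk4 without female HuRm-/- locked mouse 34 (dash at 0.90). Pdk4 stands at 1.04, and the subunit genes lie between 0.12 and 0.15.

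Pdk4 lies on chromosome 6 at 5483351 to 5496309, minus strand, in GRCm38. By group median its order was female control running (27.3 CPM), female control locked (45.8), male control running (57.6), male HuRm-/- locked (62.5), female HuRm-/- locked (62.6), male control locked (81.5), male HuRm-/- running (103) and female HuRm-/- running (111). Every group overlapped its neighbours in that order, and no tested pair of groups passed the threshold. In control females with a running wheel the 7 values ran from 21.1 to 204 CPM, and in control females with a locked wheel from 22.4 to 177 CPM. The smallest fold ranges were those of male HuRm-/- running, 79 to 142 CPM (1.8-fold), and male control locked, 56.1 to 102 CPM (1.83-fold). Without mouse 34 the female HuRm-/- locked group ran from 27.1 to 79.7 CPM. Pdk4 passed the threshold in 0 of 21 comparisons by voom with limma, in 0 by edgeR and in 0 by DESeq2, and in 4 of 21 its unadjusted p was under 0.05. The median width of its 95% confidence interval in a comparison of 2 groups was 2.02 log2 units, against 0.27 for Dld. At this spread even fitted differences above 1 log2 unit went uncalled. Between 2 groups these were 1.38 for the wheel in labelled females (adjusted p = 0.114, limma), or 0.76 without mouse 34, and 1.14 for genotype in running females (0.328).

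Mouse to mouse, after the group means were subtracted, 3 of the 45 pairs of members varied together in both measures. Of these 2 joined subunit genes, and 1 joined a kinase gene with a phosphatase gene, whose products act on the complex in opposite ways. Pdk4 varied with Pdp2, a phosphatase gene on chromosome 8 (Pearson r = 0.62, Spearman rho = 0.63, permutation p = 1e-05 for each, the smallest that 100000 permutations can give, adjusted p = 0.0003). Dld and Pdhx, which encode E3 and the protein that binds it, had r = 0.64 and rho = 0.63, and Pdha1 and Dlat, of E1 and E2, had r = 0.58 and rho = 0.63 (adjusted p by permutation = 0.0003 for each). Without the 2 mice farthest from the median these r values were 0.63, 0.61 and 0.56. Pdk4 and Pdp1, the other phosphatase gene, went in opposite directions, with rho = -0.49 (adjusted permutation p = 0.00506), but r = -0.38 did not pass (adjusted p = 0.169) and was -0.49 without female HuRm-/- locked mouse 34. None of the 25 pairs of a kinase or phosphatase with a subunit passed in either measure, with r from -0.28 to 0.39. For Pdk4 and Pdha1, which encodes the subunit that PDK4 phosphorylates, r was -0.14 (adjusted permutation p = 0.665). Without female HuRm-/- locked mouse 34 that r was 0.08. The points share the scaling of each library, and with DESeq2's size factors the 3 values were 0.62, 0.62 and 0.57.

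**Figure D3:**
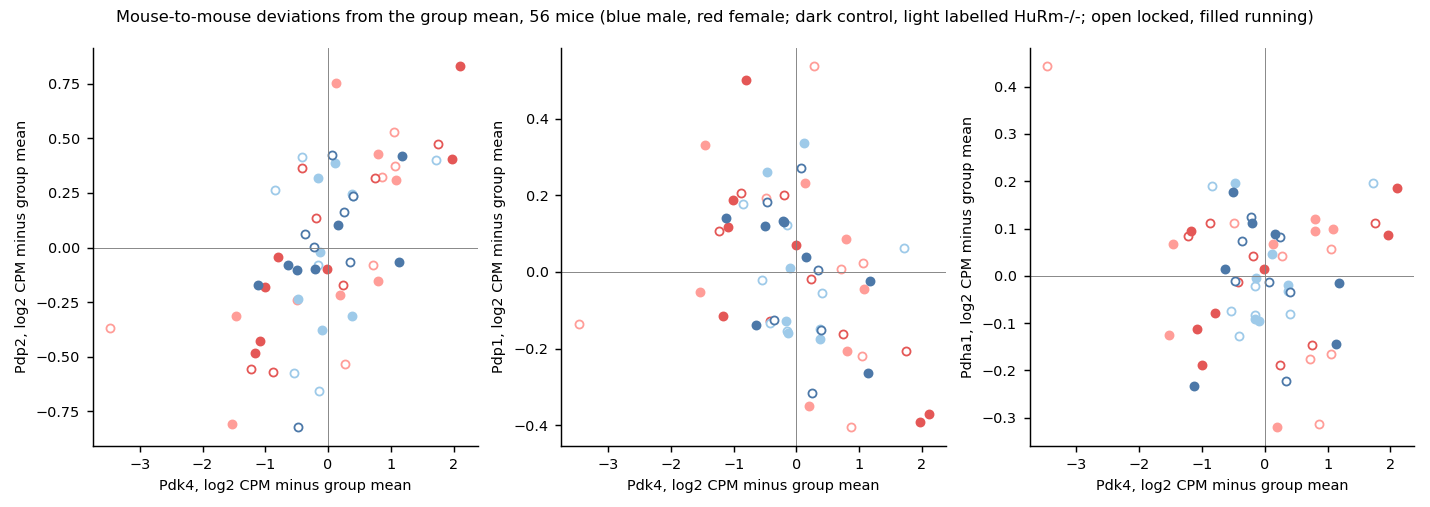
Deviation of Pdk4 from its group mean (horizontal axis, log2 CPM) against that of Pdp2, Pdp1 and Pdha1 (vertical axes, log2 CPM) in 56 mice; blue is male, red female, dark control, light labelled HuRm-/-, open locked and filled running. Pdp2 moves with Pdk4 (r = 0.62) and Pdp1 opposite to it (rho = -0.49), while Pdha1 shows no such relation (r = -0.14). The point at the far left is female HuRm-/- locked mouse 34, without which r for Pdha1 is 0.08.

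The promoters of the 2 pairs with the highest r are shown to let their sequences be compared. Each is 300 bases of RefSeq in GRCm38.p6, from 250 bases before the annotated start to 50 bases from it, on the strand of the gene, and capitals mark the CCAAT box (CCAAT, or ATTGG on the other strand) and the GC box (GGGCGG, or CCGCCC). No match overlaps another. The windows are chr6:5496229-5496528 (minus strand) for Pdk4, chr8:104591222-104591521 (plus) for Pdp2, chr12:31351422-31351721 (minus) for Dld and chr2:103073464-103073763 (minus) for Pdhx.
Pdk4: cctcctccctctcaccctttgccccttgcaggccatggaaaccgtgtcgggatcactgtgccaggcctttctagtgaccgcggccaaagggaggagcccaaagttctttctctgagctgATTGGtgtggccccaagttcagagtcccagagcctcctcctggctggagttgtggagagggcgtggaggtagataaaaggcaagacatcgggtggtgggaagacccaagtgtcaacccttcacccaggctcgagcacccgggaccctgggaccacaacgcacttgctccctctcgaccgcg
Pdp2: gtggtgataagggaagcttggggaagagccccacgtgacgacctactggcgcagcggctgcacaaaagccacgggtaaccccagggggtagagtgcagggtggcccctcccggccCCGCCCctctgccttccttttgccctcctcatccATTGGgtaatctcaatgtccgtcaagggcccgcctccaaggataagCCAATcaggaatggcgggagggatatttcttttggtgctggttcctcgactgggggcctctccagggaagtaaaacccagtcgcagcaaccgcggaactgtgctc
Dld: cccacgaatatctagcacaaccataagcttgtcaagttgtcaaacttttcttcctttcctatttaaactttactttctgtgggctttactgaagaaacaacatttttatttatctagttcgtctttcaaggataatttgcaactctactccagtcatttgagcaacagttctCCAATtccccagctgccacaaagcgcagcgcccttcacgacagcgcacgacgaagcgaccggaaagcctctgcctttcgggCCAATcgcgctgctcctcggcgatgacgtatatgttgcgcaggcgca
Pdhx: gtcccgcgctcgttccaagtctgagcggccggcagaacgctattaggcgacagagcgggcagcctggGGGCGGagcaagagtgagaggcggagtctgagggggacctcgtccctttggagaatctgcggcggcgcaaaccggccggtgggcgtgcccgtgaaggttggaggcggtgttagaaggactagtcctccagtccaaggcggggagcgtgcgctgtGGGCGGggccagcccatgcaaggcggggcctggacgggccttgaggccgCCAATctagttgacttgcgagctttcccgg

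Pdk4 has 1 CCAAT box in this window, Pdp2 has 2 and 1 GC box, Dld has 2 CCAAT boxes, and Pdhx has 1 CCAAT box and 2 GC boxes. Of the 10 members 9 had an entry, with 11 windows in all. A CCAAT box was in 6 of the 11, and in 37.4% of all 32851 promoter windows. A GC box was in 5 of 11, against 35.7% of all windows. TATAAA (in 13.6% of all windows), the forkhead core GTAAACA (3.65%) and the nuclear receptor half-site AGGTCA (16.3%), searched on both strands, were in 0 of the 11 windows. A match is a run of letters, not a measured binding site.

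The genes whose deviations were most like those of Pdk4 over the 56 mice were Angptl4 (r = 0.77), Ucp3 (0.76), Arntl (0.76), Tmcc3 (0.72) and Pank4 (0.70). Angptl4 encodes a secreted inhibitor of lipoprotein lipase, Ucp3 a mitochondrial carrier of muscle, and Arntl the clock factor BMAL1. Without female HuRm-/- locked mouse 34, r was 0.79 for Angptl4, 0.80 for Ucp3, 0.67 for Arntl and 0.66 for Tmcc3, while Pank4 had 0.58, at rank 12. For Pdk2 the nearest were Dcaf6 (0.78), Emc6 (0.76), Pygm (0.76), the muscle glycogen phosphorylase, Pcyt1a (0.75) and Myom2 (0.74, rank 10 without mouse 34). For Pdha1 they were Tmem38a (0.72, rank 8 without mouse 34), 1700020I14Rik (0.72, rank 6), Ndufa10 (0.72, rank 11), which encodes a subunit of respiratory complex I, Gm37829 (0.71) and Crat (0.70), which buffers acetyl-CoA as acetylcarnitine. These likenesses were picked from all genes, so they carry no test.

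The first comparison asked what a running wheel did to these genes. Averaged over sex and labelled genotype, Dlat was 16.5% higher in running mice (95% confidence interval 10.5 to 22.8%) and Pdk1, a kinase gene known as a target of hypoxia signalling, was 11% higher (4.03 to 18.3%). As log2 fold changes these were 0.22 ± 0.038 (SE, adjusted p = 7.5e-05) and 0.15 ± 0.046 (adjusted p = 0.0395) by voom with limma. So 2 of the 10 members rose and 0 fell, where 3.42% of all tested genes rose. All 10 fitted values were above zero. The median log2 fold change was 0.15 for the kinases and phosphatases and 0.12 for the subunits, against 0.01 over all genes. Pdp2 (0.32, adjusted p = 0.0696), Pdhb (0.12, 0.0579) and Pdha1 (0.12, 0.0642) lay above the threshold of 0.05, and Pdp2 was below it by edgeR (0.0309) and DESeq2 (0.032). Pdk4 stood at 0.39 ± 0.25 (adjusted p = 0.421), and at 0.23 (0.602) without female HuRm-/- locked mouse 34. The Pdk1 call was lost without any 1 of 31 mice (adjusted p up to 0.079), and without female HuRm-/- locked mouse 34 the count was 3, with Pdha1 at 0.14 (adjusted p = 0.0136). In bulk muscle, fewer cells of a type and less RNA per cell cannot be told apart. Over the same contrast 854 of 14321 genes passed in either direction. Of 10 fast fibre markers 6 were lower and 2 higher. In addition 1 of 8 slow fibre and 2 of 4 brown adipocyte markers were higher, and 5 of 12 liver markers and 1 of 10 adipocyte markers were lower. Liver markers summed to between 6.81 and 3401 CPM per mouse. Their part in the result was not tested.

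**Figure D4:**
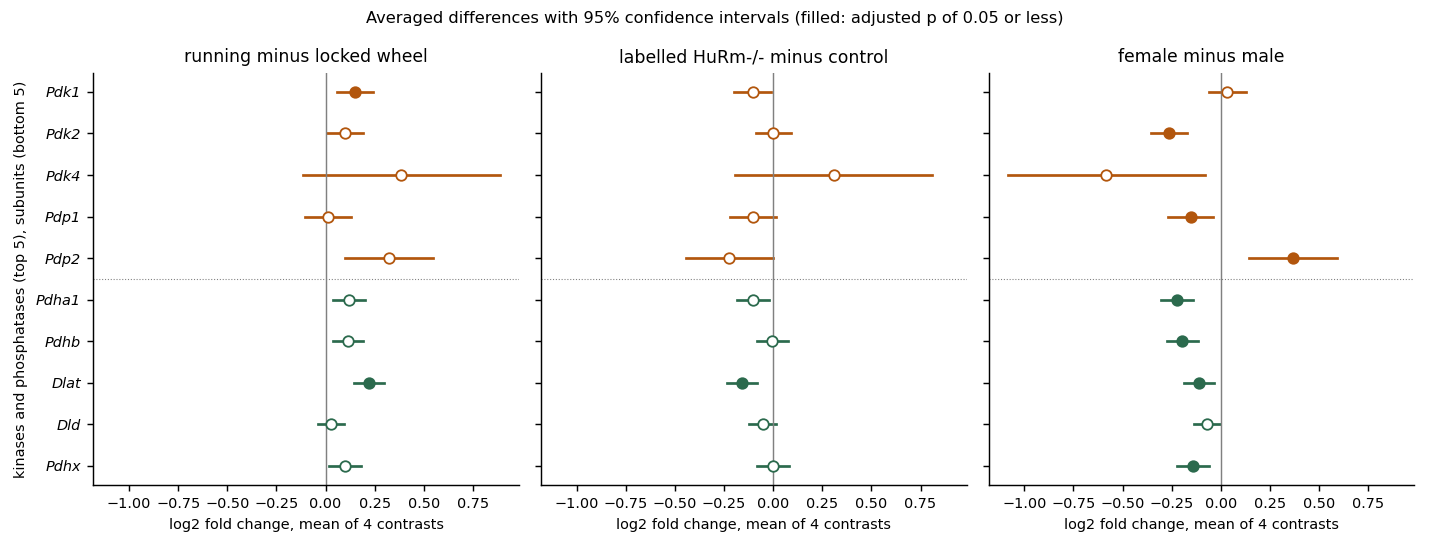
Log2 fold changes of the 10 genes, each the mean of 4 contrasts of 7 against 7 mice, with 95% confidence intervals, for running against locked wheel, labelled HuRm-/- against control, and female against male; filled points have an adjusted p of 0.05 or less. 2 genes are filled for the wheel, 1 for the genotype label and 7 for sex, and the interval of Pdk4 is the widest in each panel.

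In control males the 2 members that passed for the wheel were subunit genes, Dlat and Pdhb. Dlat was at 72 to 91.5 CPM (median 84.4) with a locked wheel and 97.2 to 120 CPM (median 114) with a running wheel. The groups did not overlap, and the log2 fold change was 0.39 ± 0.075 (adjusted p = 0.0013, limma). Pdhb, the E1 beta gene, was at 145 to 177 CPM (median 162) locked and 179 to 228 CPM (median 203) running. Again no running mouse was as low as any locked one (0.37 ± 0.076, adjusted p = 0.00343, limma). These 2 of 10 members rose against 1.49% of all genes, and the median of the 5 subunits was 0.23, against 0.075 for the kinases and phosphatases and 0.02 for all genes. Pdhx (0.23, adjusted p = 0.0963), Dld (0.20, 0.0748) and Pdha1 (0.20, 0.17) did not pass, nor did the phosphatase genes Pdp2 (0.35, 0.475) and Pdp1 (0.24, 0.251). In these mice 2 fast fibre markers were lower and 2 higher, and 0 of 8 slow markers passed, beside 464 of 14321 genes in either direction.

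In control females the 2 members that passed were kinase genes, Pdk2 and Pdk1. Pdk2, the kinase gene with the highest level here, was at 144 to 177 CPM (median 149) locked and 172 to 223 CPM (median 199) running, and the highest locked mouse lay above the lowest running ones (0.33 ± 0.092, adjusted p = 0.0158, limma). Pdk1 was at 17.3 to 26.2 CPM (median 20.8) locked and 20.3 to 30 CPM (median 28.3) running, with wider overlap (0.33 ± 0.095, adjusted p = 0.0202, limma). These 2 of 10 rose where 4.5% of all genes did. Both calls were lost without female control running mouse 1, with each at 0.30 (adjusted p = 0.052 for Pdk2 and 0.0685 for Pdk1), and the Pdk1 call also without female control locked mice 12 or 33 or running mouse 27. Pdp2 had a larger fitted change, 0.54 ± 0.21, which did not pass (adjusted p = 0.0956). The median was 0.33 for the kinases and phosphatases and 0.10 for the subunits. In the same contrast 1251 of 14321 genes passed in either direction. Of 10 fast fibre markers 3 were higher and 1 lower. In addition 1 of 12 liver, 5 of 10 adipocyte, 4 of 5 erythroid and 3 of 5 leukocyte markers were lower. Their part in the result was not tested.

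In mice labelled HuRm-/- no member passed for the wheel. In males 0 of 10 passed by limma, edgeR and DESeq2, the lowest adjusted p was 0.505 (Dlat), and 0.0419% of all genes passed. At an unadjusted p under 0.05 there were 0 of 10 members, beside 1821 of 14321 genes. In females 0 of 10 passed by limma and by edgeR and 1 by DESeq2, where 3.85% of all genes passed by limma. An unadjusted p under 0.05 was found there for 5 of 10 members and 2492 of 14321 genes. Dlat was nearest there, at 66 to 87.7 CPM (median 70.9) locked and 73.4 to 97.4 CPM (median 90.4) running (0.24 ± 0.076, adjusted p = 0.0629). Pdk4 had its largest fitted change of the 4 in these females, 1.38 ± 0.51 (adjusted p = 0.114), from 3.45 to 79.7 CPM locked to 33.5 to 205 CPM running, and 0.76 (adjusted p = 0.402) without mouse 34, when the locked mice ran from 27.1 to 79.7 CPM.

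A call in one genotype and not in the other is no test of a difference, so the running responses were compared directly. Between labelled HuRm-/- and control males, the response differed for 0 of 10 members by limma, edgeR or DESeq2 (0.0349% of all genes by limma). In females it also differed for 0 of 10 by each tool (0% of all genes by limma). At an unadjusted p under 0.05 there were 3 members in males, beside 1275 of 14321 genes, and 3 in females, beside 1472. In males the difference for Pdhb was -0.32 (95% confidence interval -0.54 to -0.11, adjusted p = 0.368) and for Dlat -0.27 (-0.48 to -0.06, adjusted p = 0.457), both limma.

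Between the sexes, the responses of control mice did differ. The response of Pdhb was lower in females than in males by 0.43 log2 units (-0.43 ± 0.11, adjusted p = 0.00777, limma): in females it was at 133 to 185 CPM (median 157) locked and 142 to 170 CPM (median 155) running, where the male values above did not overlap. For Dld the difference was -0.33 ± 0.095 (adjusted p = 0.0218, limma). Dld was at 70.9 to 89.2 CPM (median 74.6) locked and 75.5 to 101 CPM (median 87) running in males, and at 67 to 87.6 CPM (median 84.7) locked and 66.6 to 78.5 CPM (median 73.5) running in females, so the medians moved in opposite directions and every pair of ranges overlapped. Without male control running mouse 10 it was -0.29 (adjusted p = 0.052). These were 2 of 10 members, where 4.41% of all genes had a lower response in females. The responses of Dlat (-0.27, adjusted p = 0.108), Pdk2 (0.26, 0.217) and Pdk1 (0.30, 0.147) were not shown to differ. In either direction 1251 of 14321 genes differed in response. Adipocyte (2 of 10), erythroid (4 of 5) and leukocyte (2 of 5) markers also had a lower response in females, and 3 of 10 fast fibre markers a higher one. Their part in the result was not tested. Among mice labelled HuRm-/- 0 of 10 members had a response differing between the sexes by limma, edgeR or DESeq2 (1.35% of all genes). An unadjusted p under 0.05 was found for 2 of 10 members, beside 2110 of 14321 genes.

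**Figure D5:**
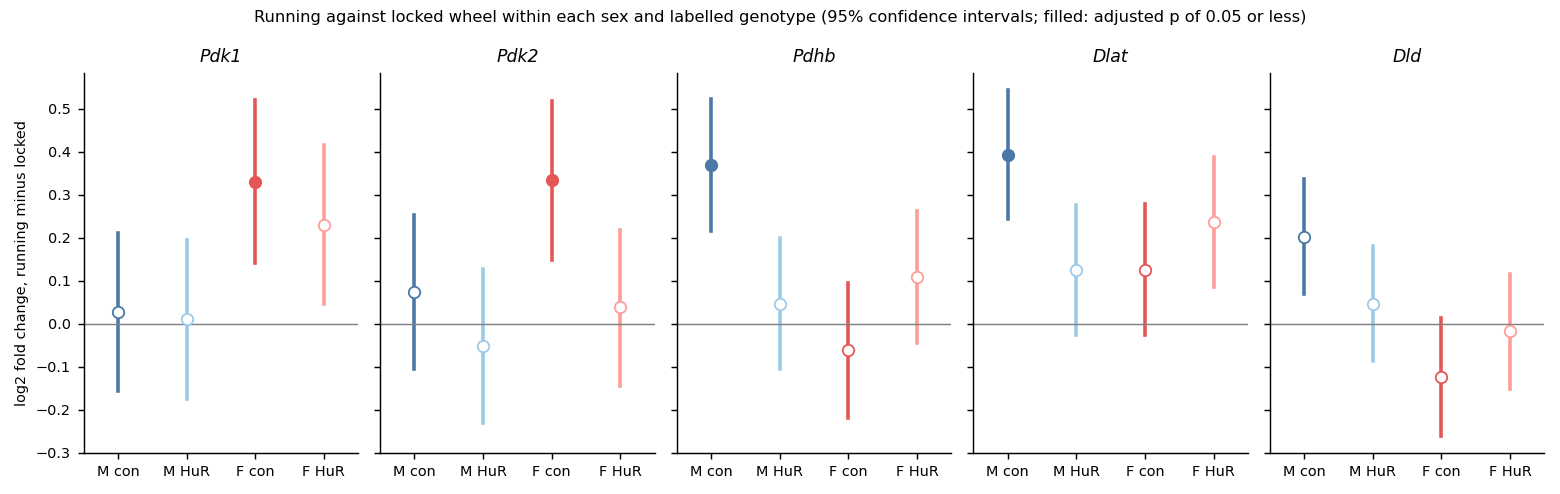
Log2 fold change of running against locked wheel with 95% confidence intervals for 5 genes. Males are blue, females red, controls (con) dark and mice labelled HuRm-/- (HuR) light. Filled points have an adjusted p of 0.05 or less. Dld was called in no contrast of running against locked wheel, only in the difference of responses between the sexes in controls. Pdhb and Dlat are filled in control males (0.37 and 0.39), and Pdk1 and Pdk2 in control females (0.33 each).

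The second comparison asked what differed between labelled HuRm-/- and control mice. Averaged over sex and wheel, Dlat was lower, by 0.16 log2 units (-0.16 ± 0.038, adjusted p = 0.00254, limma), and 8 of the 10 fitted values were below zero. This was 1 of 10 members, where 7.41% of all genes were lower. The median was -0.10 for the kinases and phosphatases and -0.05 for the subunits, against 0.01 for all genes. Pdha1 stood at -0.10 ± 0.040 (adjusted p = 0.0815) and passed without female HuRm-/- locked mouse 34 (-0.12, adjusted p = 0.0182). Pdk1 (-0.11, adjusted p = 0.137), Pdp2 (-0.22, 0.202), Pdp1 (-0.10, 0.264) and Pdk4 (0.31 ± 0.25, 0.486) did not pass, and Pdk4 stood at 0.47 (0.158) without that mouse. Pdk2, Pdhb and Pdhx had fitted values within 0.01 of zero, with 95% confidence intervals no wider than from -0.09 to 0.09. The direction rests on the labels, which the Elavl1 count did not bear out. The study itself reports less Elavl1 messenger RNA in gastrocnemius of HuRm-/- mice than of controls, without saying whether these mice were used. In either direction 1695 of 14321 genes passed. Slow fibre markers were higher in the labelled mice, 7 of 8 of them (median 0.50). Their summed levels were 848 to 2281 CPM in controls and 885 to 2991 CPM in labelled mice. In addition 2 of 5 Schwann cell markers and 1 of 10 adipocyte markers were higher, and 1 of 10 fast fibre and 1 of 4 brown adipocyte markers lower. Their part in the result was not tested.

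Within single groups the Dlat difference passed in running males. Dlat was at 97.2 to 120 CPM (median 114) in controls and 78.6 to 108 CPM (median 88.2) in labelled mice, and the ranges overlapped (-0.28 ± 0.074, adjusted p = 0.0256, limma). It was 1 of 10, where 1.87% of all genes were lower. The call was lost when only these 14 mice were fitted (adjusted p = 0.0659) and without any 1 of 7 mice, the highest being 0.089 without male control running mouse 10. Pdha1 in the same mice stood at 206 to 274 CPM (median 245) in controls and 189 to 231 CPM (median 199) in labelled mice (-0.26, adjusted p = 0.0548). The median of the subunits was -0.18 there and that of the kinases and phosphatases -0.10. No member passed in the other 3 contrasts by limma, edgeR or DESeq2. By limma 1.15% of all genes passed in locked males, 0.384% in locked females and 0% in running females. At an unadjusted p under 0.05 there were 0 of 10 members in locked males, beside 2386 of 14321 genes. In locked females these were 1 of 10 and 2043, and in running females 3 of 10 and 1807. The genotype difference was not shown to differ between the sexes for any member, with 0 of 10 by each tool at either wheel. Of all genes 0% passed with locked wheels and 0.014% with running wheels. An unadjusted p under 0.05 was found for 1 of 10 members at each wheel, beside 1217 genes locked and 1041 running.

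The third comparison, of females with males, gave the most calls. Averaged over genotype label and wheel, 6 of 10 members were lower in females (17.1% of all genes were) and 1 was higher (15.8% of all genes). The kinase gene Pdk2 was lower by 0.27 (-0.27 ± 0.045, adjusted p = 3.74e-06), and the E1 genes Pdha1 (-0.22 ± 0.040, 1.03e-05) and Pdhb (-0.20 ± 0.039, 5e-05) were also lower by limma. Pdhx (-0.14, adjusted p = 0.00445), Dlat (-0.11, 0.0196) and Pdp1 (-0.15, 0.033) were lower too. Pdp2 was higher, by 0.37 ± 0.11 (adjusted p = 0.00767). Dld (-0.07, adjusted p = 0.1), Pdk4 (-0.58 ± 0.25, 0.067) and Pdk1 (0.03, 0.621) did not pass. Pdk4 passed without any 1 of 7 mice (adjusted p as low as 0.0296, limma). Under the other settings Pdk4 ran from -0.585 to -0.229 and did not pass (adjusted p up to 0.522). The medians were -0.15 for the kinases and phosphatases and -0.14 for the subunits, against 0.00 for all genes. Pdp1 and Dlat lost the call under upper-quartile normalization (adjusted p = 0.0666 and 0.0587), and Pdp1 also without any 1 of 9 mice. All 8 slow fibre markers (median 0.65), 8 of 10 adipocyte markers (median 1.40), all 5 erythroid and 3 of 5 leukocyte markers were higher in females, while 5 of 10 fast fibre markers were lower and 1 higher. 2 of 4 brown adipocyte markers and 1 of 12 liver markers were lower as well. Slow fibre markers summed to 848 to 2382 CPM in males and 1256 to 2991 CPM in females, and adipocyte markers to 1482 to 4521 CPM and 3023 to 6185 CPM. Their part in the result was not tested.

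With locked wheels Pdk2 and Pdha1 were lower in females of both genotype labels. In controls Pdk2 was at 173 to 227 CPM (median 194) in males and 144 to 177 CPM (median 149) in females (-0.35 ± 0.092, adjusted p = 0.00355, limma). In mice labelled HuRm-/- it was at 181 to 239 CPM (median 216) in males and 140 to 226 CPM (median 160) in females (-0.35, adjusted p = 0.00343, limma), and the 226 CPM is that of mouse 34. In each case 1 female lay inside the male range. Pdha1, which lies on the X chromosome at 160122209 to 160138413 (minus strand), was at 182 to 231 CPM (median 210) in control males and 154 to 190 CPM (median 181) in control females (-0.27, adjusted p = 0.0132). In labelled mice it was at 189 to 236 CPM and 139 to 235 CPM (-0.25, adjusted p = 0.0222, lost without male HuRm-/- locked mice 8 or 12 or female HuRm-/- locked mouse 14, and at 0.116 when only these 14 mice were fitted). Pdhb was lower in the labelled mice as well, with males at 145 to 200 CPM and females at 134 to 172 CPM (-0.21, adjusted p = 0.0473, limma). That Pdhb call was lost without any 1 of 16 mice, among them mouse 34 (-0.19, adjusted p = 0.0908). It was also lost under upper-quartile normalization (0.0665), with only these 14 mice (0.102) and with only the 28 mice with locked wheels (0.0624). These were 2 of 10 in controls, where 11.2% of all genes were lower, and 3 of 10 in labelled mice, where 10.2% were.

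With running wheels the 4 members that passed between control females and males were subunit genes. Pdhb was at 179 to 228 CPM in males and 142 to 170 CPM in females, with no overlap (-0.43 ± 0.077, adjusted p = 8.02e-05, limma). Dld (-0.26, adjusted p = 0.00737), Pdha1 (-0.27, 0.0209) and Dlat (-0.23, 0.0437) were lower in females too, making 4 of 10, where 4.57% of all genes were lower. Pdha1 lost its call without male control running mouse 10 or female control running mice 27 or 28, and Dlat lost it without any 1 of 31 mice and under 7 of 10 other settings, among them edgeR (adjusted p = 0.0508), DESeq2 (0.0618) and upper-quartile normalization (0.0838). Pdp2 (0.47, adjusted p = 0.132) and Pdk1 (0.20, 0.179) did not pass. The median of the subunits was -0.26 and that of the kinases and phosphatases -0.09, with Pdk2 at -0.09 (adjusted p = 0.615). In running mice labelled HuRm-/- only Pdp2 passed, at 2.19 to 3.71 CPM (median 2.8) in males and 2.76 to 8.14 CPM (median 4.34) in females (0.77 ± 0.22, adjusted p = 0.0224, limma), 1 of 10 where 2.3% of all genes were higher. Its ranges overlapped, the call was lost when only these 14 mice were fitted (adjusted p = 0.0571) and without any 1 of 5 mice, and Pdp1, the other phosphatase gene, stood at -0.35 (adjusted p = 0.0546). The wheel, genotype and sex comparisons share mice, so their values are set side by side and not tested against each other.

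The balance of kinase to substrate was read within each mouse as a ratio of counts, which no scaling of libraries can change. The counts are not divided by gene length, so a ratio of 1 has no meaning of its own. Pdk4 to Pdha1 had medians from 0.143 (female control running) to 0.736 (female HuRm-/- running), and single mice ran from 0.0148 to 1.02, or from 0.0983 without female HuRm-/- locked mouse 34. Pdk2 to Pdha1 was steadier, with group medians from 0.837 to 1.08. None of the 36 tests of a ratio between 2 groups of 7 passed after adjustment over the 36 (exact permutation tests, two-sided, the smallest possible p being 0.000583). The lowest was Pdk4 to Pdha1 in running males, at 0.148 to 0.663 (median 0.22) in controls and 0.341 to 0.72 (median 0.543) in labelled HuRm-/- (1.98-fold, exact permutation p = 0.0251, adjusted p = 0.389).

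The neighbours of the complex in metabolism were read from lists of known genes. For scale, 3.42% of all tested genes were higher with running, and 854 of 14321 passed in either direction. In labelled HuRm-/- mice 7.41% were lower, and 1695 of 14321 passed in either direction. By sex 15.8% were higher and 17.1% lower in females. In running mice 2 of 14 genes of pyruvate entry and use were higher and 0 lower, Ldhb, the lactate dehydrogenase that favours pyruvate (log2 fold change 0.50), and Slc16a1, a monocarboxylate transporter (0.21). In labelled HuRm-/- mice 1 was higher and 2 lower, among them Mpc2, part of the mitochondrial pyruvate carrier (-0.20). In females 4 were higher and 7 lower, with Pcx, pyruvate carboxylase, at 1.05 (adjusted p = 4.13e-17) and Slc16a3, a lactate exporter, at -0.68. Of 15 citric acid cycle genes 3 were higher with running and 0 lower, including Idh2 (0.36) and Cs (0.14), 5 were lower and 0 higher in labelled mice, including Sdhc (-0.21), and 8 were lower and 0 higher in females, including Sdha (-0.17). The complexes that share E3 and lipoate gave 2 of 11 higher with running (Ogdh 0.20), 3 lower in labelled mice (Dlst, the E2 of the 2-oxoglutarate complex, -0.27), and 3 higher and 1 lower in females (Dbt, the E2 of the branched-chain complex, 0.34). Among 11 cofactor genes and other regulators 1 was higher with running (Sirt5, 0.30), 1 was higher and 2 lower in labelled mice (Sirt5, -0.26), and 1 was higher and 3 lower in females (Pdpr, the phosphatase regulatory subunit, -0.16).

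Genes known to act on, or move with, Pdk4 were counted in the same way, and the same shares and counts of all genes apply. Of 18 transcription factors and coactivators 4 were higher with running and 0 lower (Ppargc1b 0.31, Esrrg 0.34), 7 were lower and 0 higher in labelled HuRm-/- mice (Rxrg -0.38, Ppargc1a -0.22), and 6 were higher and 4 lower in females (Lpin1 -0.44, Nr3c1, the glucocorticoid receptor, 0.28). Of 17 fat oxidation genes of the fasting response 7 were higher with running and 0 lower (Lpl 0.38, Hadhb 0.28), 5 were lower and 0 higher in labelled mice (Acadm -0.15), and 6 were lower and 1 higher in females (Acadl -0.31). Of 12 glucocorticoid response genes 1 was higher and 1 lower with running (Zbtb16 0.37, Per1 -0.67), 1 was higher and 2 lower in labelled mice (Klf9 -0.21), and 1 was higher and 5 lower in females (Sgk1 -0.77, Fkbp5 -0.68). The median log2 fold changes of the fat oxidation list were 0.17, -0.07 and -0.10 in the 3 comparisons, beside 0.01, 0.01 and 0.00 for all genes. Pdk4 itself passed in none of the 3.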

How the data were processed

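Gene expression was measured by RNA sequencing of gastrocnemius from 56 mice. The authors deposited 1 table of raw read counts per gene, 15539 genes by 56 mice, not normalized, whose smallest row total is 168. Per the submitters' processing notes the build was GRCm38 (mm10) and R 4.0.3 with edgeR 3.38.4 was used. The aligner, annotation and strand setting are not given in the sources used here. The labels name a 3' mRNA kit and the study's methods a stranded total RNA kit, so levels per length are approximate. All columns were mapped to samples by their labels (0 left over), and no duplicate libraries were found.

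Counts were scaled by TMM, filtered with filterByExpr by group, and fitted with voom and limma 3.58.1 (edgeR 4.0.16, R 4.3.3), 1 mean per group over all 56 mice, as the study's methods name TMM and limma. Each of 21 contrasts was adjusted by Benjamini-Hochberg over 14321 genes, and called at an adjusted p of 0.05 or less. Log2 CPM came from the TMM library sizes. Ratios used counts plus 0.5 in two-sided exact permutation tests of 7 against 7 mice (Python 3.11.15), and correlations 100000 permutations within groups. Only the main voom and limma fit was tested on simulated data. Gene lengths and positions came from GENCODE mouse release M21, and promoters from RefSeq on GRCm38.p6. Depth was 6639782 to 21633091 counts per mouse, and counting error covers no other error.

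The named genes were the 10 members, Elavl1, up to 3 called genes per list and averaged contrast with the smallest adjusted p, and the 5 genes most like Pdk4, Pdk2 and Pdha1. The lists were pyruvate entry and use, cofactors and other regulators, other lipoate-dependent dehydrogenases, citric acid cycle, factors acting on Pdk4, fat oxidation, glucocorticoid response, and markers of fast and slow fibres, adipocytes, brown adipocytes, liver, erythroid cells, leukocytes and Schwann cells. Some list genes are not reported here by name. Pck1 and Ppargc1a each stand in a marker list and in a pathway list. Ucp1, Cd3e and Cd79a of the marker lists are not among the genes listed. The members and lists were chosen with earlier results of these data known.

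Alternatives were edgeR's quasi-likelihood test, DESeq2 1.42.0, upper-quartile and DESeq2 size-factor scaling, no filter, at least 10 counts in every mouse, sample quality weights, the replicate number as a block, fits of fewer groups, and leaving out each mouse in turn. Values without female HuRm-/- locked mouse 34 in the correlations were added after seeing the data.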

Additional observations from a re-analysis of the deposited data

Results flagged for a closer look

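In 5 of the 88 combinations of a gene and a group of 7 that were examined, the highest mouse stood apart from the other 6, with a gap to its nearest neighbour, as a share of the group's range, above Dixon's 95% critical value. Chance gives about 1 in 20. Pdk4 was at 229 CPM in male HuRm-/- locked mouse 8, when the next was at 92.1 CPM, and at 177 CPM in female control locked mouse 20, when the next was at 88.1 CPM. Pdk2 was at 226 CPM in female HuRm-/- locked mouse 34, when the next was at 175 CPM, and the same mouse had the lowest Pdk4 of all, 3.45 CPM. Its library had a quality weight of 0.201, with fast fibre markers at 106308 CPM and liver markers at 16.1 CPM. Both sums lay inside the range of the other mice, but were the highest and the lowest of its own group. Pdp2 was at 5.24 CPM in male control running mouse 5 (next 4.2 CPM), and Dld at 89.2 CPM in male control locked mouse 16 (next 77.4 CPM).

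Among control mice the response to the running wheel differed between the sexes for 2 subunit genes, by the contrast of the 2 responses in limma. The difference, female minus male, was -0.43 log2 units for Pdhb (adjusted p = 0.00777) and -0.33 for Dld (adjusted p = 0.0218). Without male control running mouse 10 these were -0.40 (adjusted p = 0.018) and -0.29 (adjusted p = 0.052).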

How the results depend on the processing

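The averaged wheel comparison called 2 members, 1 with DESeq2 size factors in voom and 4 with sample quality weights, which gave Pdp2 (adjusted p = 0.0397) and Pdha1 (0.00486), and 1 to 4 when single mice were left out. The averaged genotype comparison called 1, and 2 with quality weights (Pdha1, 0.00651), range 1 to 2. Ranges in parentheses are those with single mice left out. Sex called 7, and 5 with upper-quartile scaling (range 6 to 8). Within groups the 4 wheel contrasts called 4, and 7 with quality weights (range 2 to 6). The 4 genotype contrasts called 1, 2 by DESeq2, 4 with quality weights, 0 with only the 2 groups compared and 2 with the 28 mice of the same wheel (range 0 to 2). The 4 sex contrasts called 10, 6 with only the 2 groups and 13 with quality weights (range 8 to 11). The differences of responses called 2 (range 1 to 2). The causes were not tested, except that fits of fewer groups hold fewer mice.

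Values below the threshold that changed sign were near zero or of Pdk4. For genotype Pdk2 was -0.001 with DESeq2 size factors and -0.019 with quality weights (leaving out mice, -0.019 to 0.016), Pdhb 0.012 with upper-quartile scaling and 0.004 with at least 10 counts (-0.016 to 0.010), and Pdhx 0.014 and 0.006 (-0.013 to 0.014). Pdp1 for the wheel ran from -0.014 to 0.030. Pdk4 in control females with the wheel was 0.185 by edgeR and 0.194 by DESeq2 (-0.569 to 0.055), for genotype in locked males 0.067 and 0.080, in locked females -0.691 to 0.157, and for sex in running labelled mice 0.079 and 0.073 (-0.371 to 0.063). Pdk4 with Pdp1 had r of -0.38 with DESeq2 size factors, and -0.52 and -0.49 with mice left out.

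Of 22 pairs of mice that share a number between sexes, 6 correlated above 0.1 (median 0.0451), so the numbers were not taken as pairs. With the replicate block the counts were 2, 1, 7, 4, 1, 10 and 2, and no call of a member changed. The ratio tests were run unpaired only, and 0 of 36 passed with 1 added to each count or without any 1 mouse.

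Counts over all genes that moved by more than 1.5 times under another setting were, for the wheel, 854 to 1331 averaged, 464 to 1046 in control males, 6 to between 2 and 226 in labelled males and 551 to 161 in labelled females. For genotype they were 165 to between 38 and 405 in locked males, 55 to between 0 and 169 in locked females, 376 to between 223 and 1037 in running males and 0 to 71 in running females. For sex they were 2763 to 1739 in locked labelled mice. For responses they were 5 to between 0 and 34 and 0 to 11 between genotypes and 193 to 331 between sexes in labelled mice, and for the genotype difference between sexes 0 to 1 locked and 2 to between 0 and 4 running. Leaving out 1 mouse moved them to as few as 194 in control males for the wheel (without male control running 10), 770 of 1251 in control females (without female control locked 12), and for genotype 86 in running males (without male control running 10), 8 to 448 in locked males (without male control locked 20 and male HuRm-/- locked 8) and 0 to 170 in locked females (without female control locked 16 and female HuRm-/- locked 30), and for sex to 531 of 797 in running labelled mice (without male HuRm-/- running 4). Without female HuRm-/- locked mouse 34 the count went from 165 to 249 for genotype in locked males and from 0 to 3 in running females. For responses it went from 5 to 12 between genotypes in males and from 193 to 314 between sexes in labelled mice. The median over all genes stayed between -0.038 and 0.038 under every setting. The log2 SD that counting error alone would give was 0.23 for Pdp2, against 0.41 between mice within groups, and 0.061 for Pdk4, against 1.04.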
